A study of Rattus norvegicus with 62 samples.

Results

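Cardiac muscle of rats given 80 mg/kg/day of rosiglitazone was compared with that of rats given 10 mg/kg/day, 24 h after the last of 14 daily oral doses. The arrays were selected by their titles, which give dose and sampling time: 5 arrays of 80 mg/kg (replicates 2 to 6) and 5 arrays of 10 mg/kg (replicates 1, 2, 3, 5 and 6), or 10 of the 62 arrays of the series. The 6 arrays of the same time from rats given vehicle (0 mg/kg) served as background. All rats were male and of the outbred Wistar strain. The series asks how the drug affects the heart, and the tissue was cut sagittally before storage, with no label saying which chambers entered a sample. Nothing in the labels ties the samples of a group to separate animals, and the spread that p-values measure here may be technical. Rosiglitazone was thus given to both groups compared, and the comparison asks what the higher dose adds to the lower one.

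Rosiglitazone is a thiazolidinedione that binds PPAR gamma, a nuclear receptor that pairs with RXR on DNA and drives fat cell differentiation, fatty acid uptake and lipid storage. In the heart, PPAR gamma is found in capillary endothelial cells among other cells, and genes by which endothelium takes up fatty acids and retinol are among its known targets. The heart muscle cell burns fatty acids, and its own lipid oxidation genes are driven mainly by the related receptor PPAR alpha.

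Atrial muscle was unequally represented between the 5 arrays of 80 mg/kg. All levels are log2 signals after quantile normalization between arrays, and differences are 80 minus 10 mg/kg on the same scale. Myl7, the regulatory myosin light chain of atrial muscle, stood at 12.86, 7.56, 12.94, 11.997 and 7.59 in replicates 2 to 6 of 80 mg/kg, against 8.06, 8.05, 8.71, 7.87 and 7.59 in the arrays of 10 mg/kg. It ranged from 6.67 to 7.97 with a median of 7.37 in the 6 vehicle arrays. Replicates 2, 4 and 5 of 80 mg/kg were therefore high, while replicates 3 and 6 lay at or below the lowest array of 10 mg/kg. Over the whole series 10 of 62 arrays lay above 9, the lowest of them at 9.32 and the highest of the others at 8.71, and at 24 h these were the 3 named here. Myl7 was singled out for this pattern, so no test of it is given.

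Several other atrial markers were high in the same 3 arrays. Myl4, the atrial essential light chain, stood at 11.58, 7.02, 11.34, 10.35 and 6.48 at 80 mg/kg, against 6.91 to 7.62 at 10 mg/kg. Nppa, which encodes the atrial natriuretic peptide, stood at 13.55, 9.93, 13.59, 12.73 and 10.79, against 9.72 to 10.88. Sln, the calcium pump inhibitor sarcolipin, stood at 10.71, 6.24, 10.85, 9.47 and 4.85, against 6.61 to 8.19. For each of these genes replicates 2, 4 and 5 of 80 mg/kg exceeded all arrays of 10 mg/kg and of vehicle, and the other 2 did not. The list of 13 markers of atrial muscle includes Myl7, by which the 3 arrays were singled out. Its summed signal ran from 8940 to 34006 at 80 mg/kg and from 8266 to 10734 at 10 mg/kg. That of 10 markers of ventricular muscle ran from 69269 to 71317 and from 67334 to 71001. Stard10 stood at 7.38, 5.74, 7.58, 6.97 and 6.05 at 80 mg/kg, against 5.57 to 6.25 at 10 mg/kg, so that those 3 again lay above all arrays of 10 mg/kg. Not all of the list had this order. Kcnj3, a potassium channel subunit, stood at 7.30, 7.88, 7.52, 7.52 and 7.44, with replicate 3 highest, against 5.45 to 7.91, and Gja5, a gap junction protein, at 6.33, 6.74, 6.89, 7.19 and 7.07, against 6.68 to 7.36. Of the 13 markers 10 were higher, Myl7 among them, and 3 lower in the mean. None of the 13 fell below the filter on low signals. The 10 ventricular markers were all above the filter. Myh6, the alpha myosin heavy chain, which is not on that list, was at 13.95 ± 0.063 at 80 mg/kg and 13.93 ± 0.0089 at 10 mg/kg (SD, n = 5 each). At 10 mg/kg 4 of the 5 arrays were tied at 13.94. Quantile normalization gives equal ranks the same value, so this small SD says little about the spread. The results that the text turns on are therefore also given without replicates 2, 4 and 5, which leaves 2 arrays of 80 mg/kg.

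**Figure D1:**
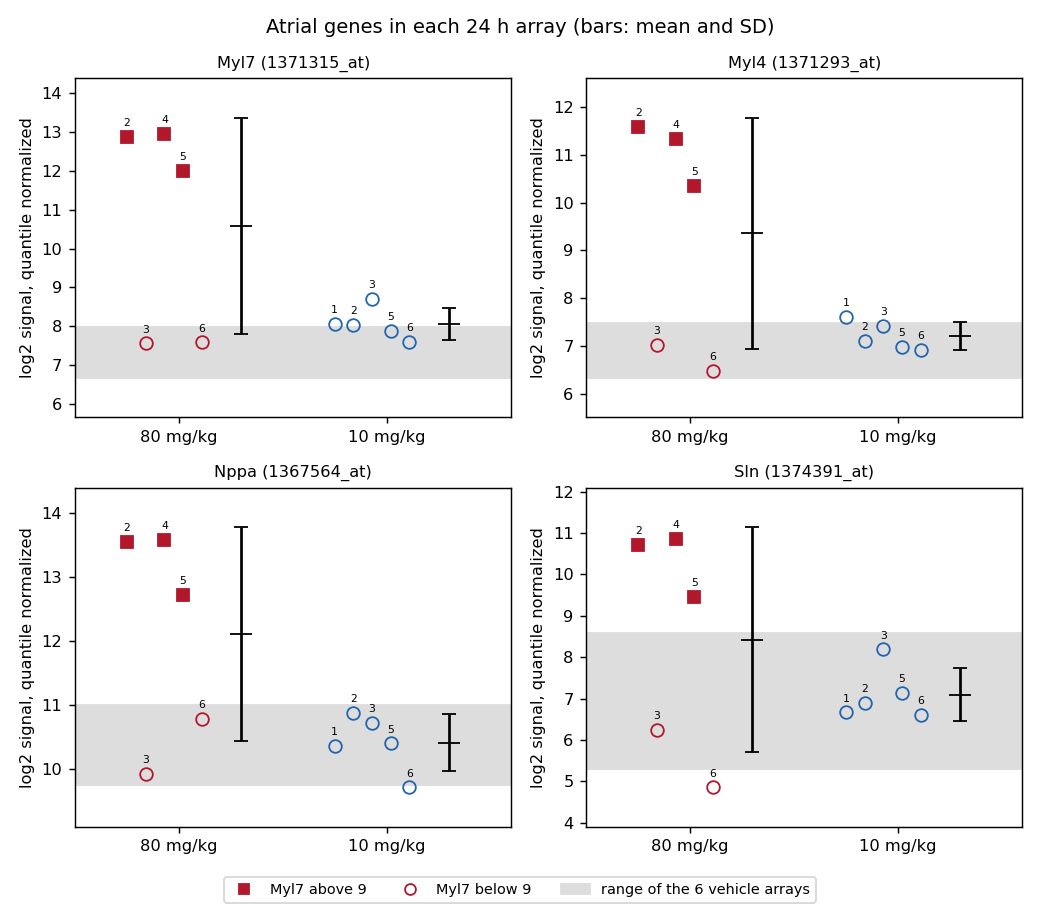
Log2 signal of Myl7, Myl4, Nppa and Sln in the 5 arrays of 80 mg/kg (left) and the 5 of 10 mg/kg (right) at 24 h, with the replicate number above each point, the mean and SD beside it and the range of the 6 vehicle arrays in grey. Replicates 2, 4 and 5 of 80 mg/kg (filled squares, Myl7 above 9) stand above all other points, and replicates 3 and 6 do not.

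Other technical measures overlapped between the doses. The difference between the 3' and 5' probe sets of actin, a measure of RNA breakdown, ran from 0.62 to 0.92 at 80 mg/kg and from 0.81 to 1.36 at 10 mg/kg. The same difference for hexokinase ran from 1.49 to 2.59 and from 1.75 to 3.84, so both reached higher at 10 mg/kg. Trimmed means of the deposited signals ran from 117.7 to 176.8 at 80 mg/kg and from 82.9 to 182.9 at 10 mg/kg. Rank correlations between arrays of 1 group lay between 0.910 and 0.942, and those between the groups between 0.913 and 0.943. No arrays of the series were identical. The median difference over all 18625 tested probe sets was −0.0057, and 48.3% of them were higher at 80 mg/kg.

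Hearts of rats given the higher dose had more Rbp7 and less Aqp1 transcript than those given the lower dose, and no other probe set passed the test. In limma's moderated test with Benjamini-Hochberg adjustment, 2 of 18625 probe sets (0.0107%) passed an adjusted p of 0.05, 1 higher (0.00537%) and 1 lower (0.00537%). The test pools the spread over all 12 groups of the series. With the 24 h arrays alone, or the 10 arrays alone, 0 probe sets passed. In all, 697 (3.74%) had an unadjusted p under 0.05, and in 79 (0.424%) the 5 arrays of 80 mg/kg did not overlap the 5 of 10 mg/kg, 32 of them higher (0.172%) and 47 lower (0.252%).

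Rbp7, a cellular retinol-binding protein known in mouse from adipose tissue and capillary endothelium, was the probe set that rose. Its promoter in the RefSeq table (build GRCr8, chr5:165177350-165177649, minus strand) is shown with that of Aqp1 because these are the 2 genes that passed. The 250 bases before the transcription start are in lower case and the 50 bases from the start on in capitals.
Rbp7: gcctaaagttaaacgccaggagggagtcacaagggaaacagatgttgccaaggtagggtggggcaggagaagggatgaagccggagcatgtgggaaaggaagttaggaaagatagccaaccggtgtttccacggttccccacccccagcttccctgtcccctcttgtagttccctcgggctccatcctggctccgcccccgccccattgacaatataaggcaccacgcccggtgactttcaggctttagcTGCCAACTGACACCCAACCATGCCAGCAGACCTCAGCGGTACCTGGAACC
Aqp1: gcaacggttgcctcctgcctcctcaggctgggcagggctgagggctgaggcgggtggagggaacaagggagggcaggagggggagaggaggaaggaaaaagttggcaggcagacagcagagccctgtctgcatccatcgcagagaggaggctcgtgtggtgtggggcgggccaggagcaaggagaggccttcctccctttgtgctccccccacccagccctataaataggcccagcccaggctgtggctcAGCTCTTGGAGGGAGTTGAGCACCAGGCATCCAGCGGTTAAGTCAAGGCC
The Aqp1 window lies at chr4:85812534-85812833 on the plus strand. PPAR gamma with RXR is known to bind direct repeats of AGGTCA with a single base between them. This repeat and AGGTCA alone, which it contains, were searched on both strands and were in neither window, while 0.0538% and 16.2% of the 33469 promoters of the table hold them. The exact repeat is so rare that its absence from 2 windows says little. Sites that differ from these letters or lie outside the windows were not searched. TATAAA was found 0 times in the Rbp7 window and 1 time in that of Aqp1, against 14.2% of all promoters. GGGCGG, the GC box, was found 2 times for Rbp7 and 1 time for Aqp1, against 33.1%.

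Rbp7 stood at 11.997, 10.21, 11.16, 10.71 and 10.00 in replicates 2 to 6 of 80 mg/kg, against 8.15, 8.91, 8.37, 8.92 and 8.83 in the arrays of 10 mg/kg. The 6 vehicle arrays ran from 7.48 to 9.001 with a median of 7.69. All 5 arrays of 80 mg/kg lay above all arrays of 10 mg/kg and of vehicle, and within 80 mg/kg the 3 arrays high in Myl7 were also the 3 highest for Rbp7. The means were 10.82 ± 0.80 at 80 mg/kg and 8.64 ± 0.35 at 10 mg/kg (SD, n = 5 each), a 4.53-fold difference (95% interval 2.59 to 7.92; log2 2.18, SE 0.40, limma adjusted p = 0.0139). Without replicates 2, 4 and 5 the difference was 1.47 (SE 0.51, limma adjusted p = 0.855), or 2.77-fold, and with Myl7 as a covariate it was 2.07 (limma adjusted p = 0.108). The part of the atrial tissue in this result was not tested beyond these values, and in bulk tissue fewer cells of a type and less RNA per cell cannot be told apart. Leaving out 80 mg/kg replicate 2 or 4 or 10 mg/kg replicate 1 or 3 also ended the call (limma adjusted p 0.284, 0.0522, 0.0682 and 0.0863), at differences of 1.88 to 2.11. The first 2 principal components parted the arrays of the series into 3 clusters, and within these the difference was 2.23 (2 arrays of each dose), 2.21 (2 arrays of 80 and 1 of 10 mg/kg) and 2.18 (1 and 2 arrays).

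Against vehicle, the difference of Rbp7 was 2.95 at 80 mg/kg (SE 0.38, limma adjusted p = 7.65e-06) and 0.77 at 10 mg/kg (SE 0.38, limma adjusted p = 0.852). These 2 comparisons share the vehicle arrays with each other and an arm each with the comparison of doses. Of the 6 vehicle arrays 5 lay in 1 of the 3 array clusters, with 1 of 5 arrays of 80 mg/kg and 2 of 5 of 10 mg/kg. Drug and cluster are thus partly mixed in the comparisons with vehicle, here and for the genes below.

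Aqp1, the aquaporin through which water crosses capillary endothelial and red blood cell membranes, fell. It stood at 9.65, 10.27, 10.25, 10.16 and 10.83 in replicates 2 to 6 of 80 mg/kg, against 11.02, 11.06, 11.23, 10.95 and 10.64 in the arrays of 10 mg/kg. The vehicle arrays ran from 10.89 to 11.22 with a median of 10.995. All 5 arrays of 80 mg/kg lay below the mean of 10 mg/kg and below all vehicle arrays, but the doses overlapped, since replicate 6 of 80 mg/kg exceeded replicate 6 of 10 mg/kg. The means were 10.23 ± 0.42 at 80 mg/kg and 10.98 ± 0.22 at 10 mg/kg (SD, n = 5 each), a difference of −0.75 (SE 0.13, limma adjusted p = 0.00522), so that the signal at 10 mg/kg was 1.68 times that at 80 mg/kg (95% interval 1.41 to 2.001). This SE and interval use the spread pooled over all 12 groups, and the SD of Aqp1 was 0.14 in vehicle at 24 h. With the spread of the 24 h arrays alone, or of the 10 arrays alone, Aqp1 did not pass. The second Aqp1 probe set kept gave −0.56 (SE 0.31, limma adjusted p = 1.0).

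Within 80 mg/kg the 3 arrays high in Myl7 were also the 3 lowest for Aqp1, replicate 2 lowest of all. Replicate 3, which is low in Myl7, lay close to replicates 4 and 5 (10.27 against 10.25 and 10.16). Without replicates 2, 4 and 5 the difference was −0.43 (SE 0.15, limma adjusted p = 0.855), and with Myl7 as a covariate −0.75 (limma adjusted p = 0.0182). Leaving out 80 mg/kg replicate 2 or 10 mg/kg replicate 3 gave −0.60 and −0.68 (limma adjusted p 0.153 and 0.0820). On the deposited scale, without quantile normalization, it was −0.71 (SE 0.26, limma adjusted p = 1.0). Within the 3 array clusters it was −0.83, −0.69 and −0.88. Against vehicle Aqp1 was at −0.81 at 80 mg/kg (limma adjusted p = 8.87e-05) and at −0.06 at 10 mg/kg (limma adjusted p = 0.946).

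**Figure D2:**
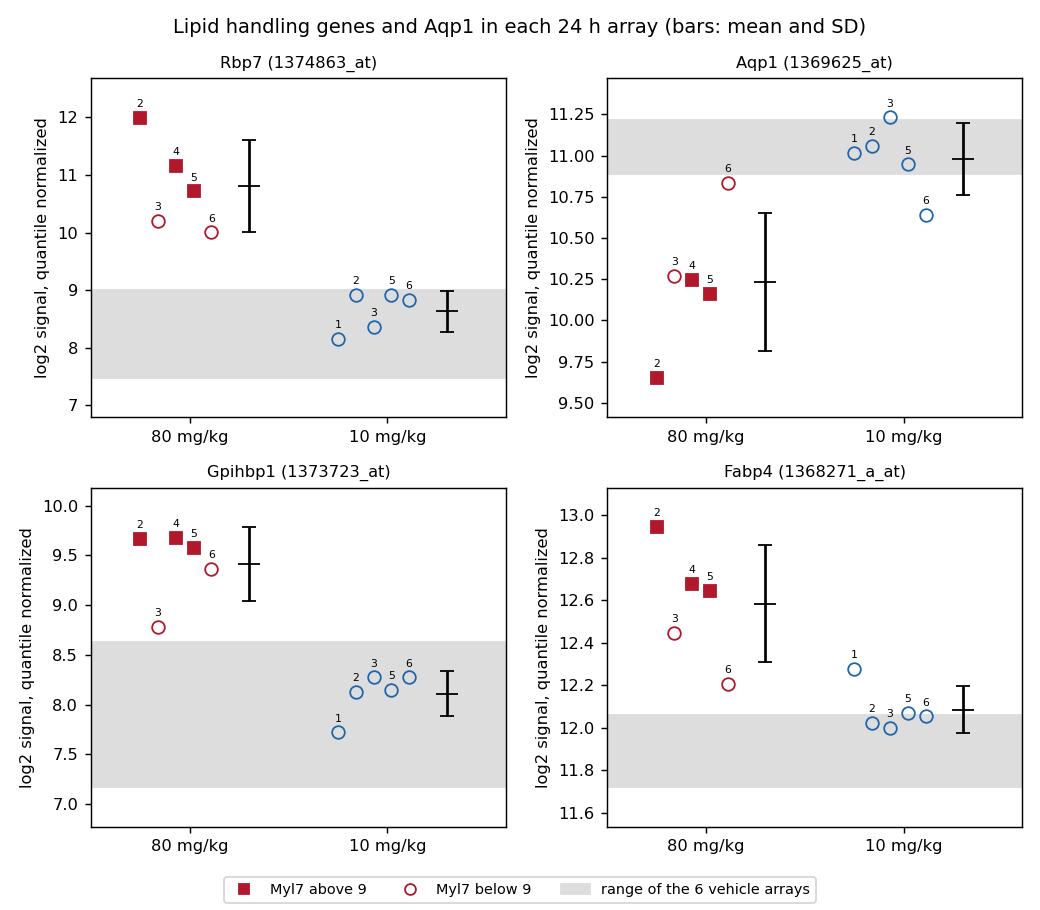
Log2 signal of Rbp7, Aqp1, Gpihbp1 and Fabp4 in each array of 80 mg/kg (left) and of 10 mg/kg (right) at 24 h, with replicate numbers, mean and SD, and the range of the 6 vehicle arrays in grey. All 5 arrays of 80 mg/kg are above all arrays of 10 mg/kg for Rbp7 and Gpihbp1, while replicate 6 of 80 mg/kg overlaps the arrays of 10 mg/kg for Aqp1 and Fabp4.

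Gpihbp1, which anchors lipoprotein lipase on the capillary wall, had the third smallest p and did not pass. It stood at 9.67, 8.78, 9.68, 9.57 and 9.36 at 80 mg/kg, against 7.72, 8.13, 8.27, 8.15 and 8.27 at 10 mg/kg, with vehicle arrays from 7.17 to 8.63 around a median of 7.57. The doses did not overlap, and all arrays of 80 mg/kg also exceeded all vehicle arrays. Within 80 mg/kg the 3 arrays high in Myl7 were again the 3 highest. The difference was 1.30 (SE 0.27, limma adjusted p = 0.0602), with means of 9.41 ± 0.37 at 80 mg/kg and 8.11 ± 0.23 at 10 mg/kg (SD, n = 5 each). Of the 10 fits with 1 array left out, the difference passed in 1, with limma adjusted p up to 0.308 in the others. That fit was without 80 mg/kg replicate 3, the lowest array for Gpihbp1, where it was 1.46 (limma adjusted p = 0.0192). Without replicates 2, 4 and 5 it was 0.96 (SE 0.36, limma adjusted p = 0.937).

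Fabp4, a carrier of fatty acids inside fat cells and capillary endothelial cells, stood at 12.94, 12.45, 12.68, 12.64 and 12.21 at 80 mg/kg, against 12.28, 12.02, 12.001, 12.07 and 12.05 at 10 mg/kg. The vehicle arrays ran from 11.72 to 12.06 with a median of 11.82. Replicate 6 of 80 mg/kg lay below replicate 1 of 10 mg/kg, and the 3 arrays high in Myl7 were again the 3 highest. The difference was 0.50 (SE 0.14, limma adjusted p = 0.564) and 0.24 (SE 0.18) without those 3 arrays. Against vehicle Fabp4 was at 0.73 at 80 mg/kg (limma adjusted p = 0.00374) and at 0.23 at 10 mg/kg (limma adjusted p = 0.858).

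The whole list for fatty acid uptake and binding, with Rbp7, Gpihbp1 and Fabp4 in it, held 17 measured genes, of which 8 were higher and 9 lower at 80 mg/kg. Their median was −0.0030, against −0.011 over the 10557 genes tested, and 0.023 without the 3 arrays high in Myl7 (10 higher, 7 lower). Only Rbp7 of them passed, and 3 (Rbp7, Gpihbp1 and Fabp4) had an unadjusted p under 0.05 in the higher direction, where 1.68% of all probe sets had one. The gene lists were chosen with earlier results of these data known, so such shares, here and below, are no test of a list. Cd36, the fatty acid translocase, was at 0.24 (SE 0.18), Fabp5, the epidermal fatty acid binding protein, at 0.28 (SE 0.17), and Lpl, lipoprotein lipase itself, at 0.0020 (SE 0.065). The intervals of Cd36 ran from −0.12 to 0.61 and of Lpl from −0.13 to 0.13. Pparg, the receptor's own gene, was at −0.36 (SE 0.22, limma adjusted p = 1.0).

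The dose difference of these 4 genes was also read at the other sampling times, from other arrays. All 4 were in the fixed set chosen with earlier results of these data known, and the model pooled the spread over all times. Their passing at other times is thus no independent test. For Rbp7 it was 0.72 (SE 0.40) at 6 h, 2.18 at 24 h, 2.80 (SE 0.38) at 168 h and 2.39 (SE 0.38) at 336 h. For Gpihbp1 it was 0.55, 1.30, 1.73 and 1.47, and for Fabp4 0.38, 0.50, 0.73 and 0.83. For Aqp1 it was −0.0083 (SE 0.13), −0.75, −1.08 (SE 0.12) and −1.24 (SE 0.12). At 168 and 336 h all 4 passed (limma adjusted p from 7.22e-10 to 0.00404), where 0.0376% and 0.102% of probe sets were called, and at 6 h none did. At 6 h limma called 0 probe sets, with 686 at an unadjusted p under 0.05, and 2 of 5 arrays of 80 mg/kg and 4 of 5 of 10 mg/kg were high in Myl7.

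A test of the difference itself set the dose difference at 24 h against the mean of those at 168 and 336 h. In limma 0 probe sets (0%) passed, with 650 at an unadjusted p under 0.05. Aqp1 was 0.42 less negative at 24 h (SE 0.15, limma adjusted p = 1.0), and Rbp7 was at −0.42 (SE 0.48, limma adjusted p = 1.0). That no probe set passed does not show that the responses were equal. When replicates 2, 4 and 5 of 80 mg/kg were left out, 4 probe sets passed this test, all with a more negative dose difference at 24 h. Tnk2, a non-receptor tyrosine kinase, was the 1 with a named gene (−1.16, SE 0.24, limma adjusted p = 0.0474). This fit kept 2 arrays of 80 mg/kg at 24 h, with Tnk2 at 5.26 and 6.56 in replicates 3 and 6. The 3 arrays left out stood at 6.23, 6.88 and 6.66, so replicate 6 lay among them. Arrays of 10 mg/kg ran from 6.68 to 7.25.

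**Figure D3:**
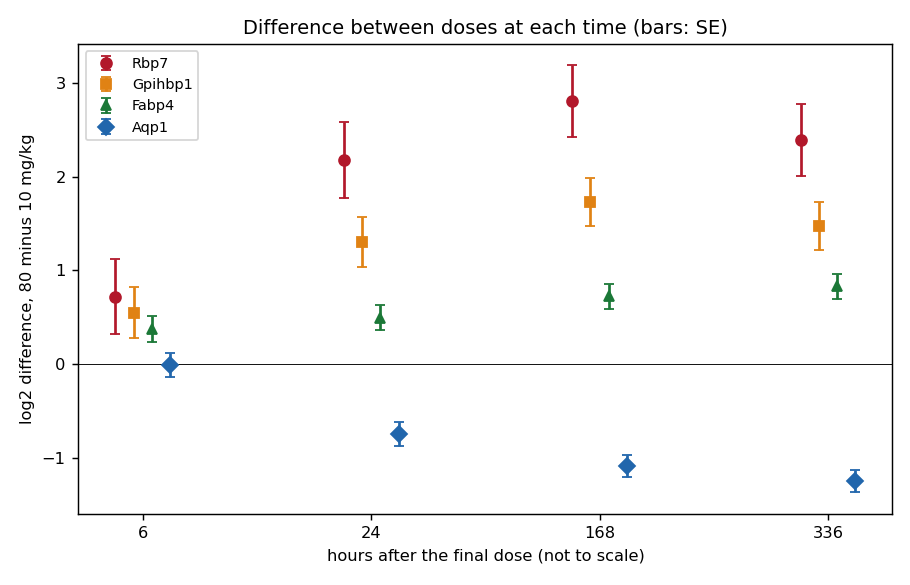
Log2 difference between 80 and 10 mg/kg for Rbp7, Gpihbp1, Fabp4 and Aqp1 at 6, 24, 168 and 336 h after the final dose, with its SE as a bar and the time axis not to scale. Aqp1 lies near 0 at 6 h and at −0.75 at 24 h, and Rbp7 at 0.72 and 2.18.

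Below these genes came others that did not pass. Ccr1, a chemokine receptor of leukocytes, stood at 4.07, 3.96, 4.56, 4.24 and 5.30 at 80 mg/kg, against 5.24, 5.84, 5.54, 6.18 and 5.25 at 10 mg/kg. The groups overlapped through replicate 6 of 80 mg/kg, without which the difference of −1.18 (SE 0.25, limma adjusted p = 0.0602) became −1.40 and passed (limma adjusted p = 0.00516). Of the 10 fits with 1 array left out, this was the only 1 in which Ccr1 passed (limma adjusted p up to 0.399 in the others). Arhgap15, a GTPase-activating protein for Rac, stood at 4.47, 4.67, 4.15, 4.72 and 4.44, against 5.13, 5.54, 5.42, 5.46 and 5.37, with no overlap (−0.90, SE 0.19, limma adjusted p = 0.0602). Both had means below the filter level of 5.03 at 80 mg/kg, so the sizes of their differences are uncertain. When the 3 arrays high in Myl7 were left out, Ccr1 was at −0.97 and Arhgap15 at −0.83. Neither differed by more than 0.28 between the doses at 6, 168 or 336 h.

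The other 15 genes that made up the 20 with the smallest p held 4 that were higher at 80 mg/kg and 11 that were lower, with limma adjusted p from 0.222 to 0.564 (Fabp4 above is among the 4). Tsga10, a sperm tail protein, was at 0.98 (SE 0.23) with no overlap between the doses. Epha4, an ephrin receptor, was at 0.99 (SE 0.24) and at 7.56, 7.75 and 6.91 in the 3 arrays high in Myl7, against 6.14 and 6.10 in the other 2 of 80 mg/kg and 5.499 to 6.30 at 10 mg/kg. Without those 3 arrays Epha4 was at 0.22, and without 80 mg/kg replicate 6 it passed (1.19, limma adjusted p = 0.0457). It passed in no other of the 10 fits with 1 array left out (limma adjusted p up to 0.944). Tnk2 was at −0.73 (SE 0.17). Wnt7a, a secreted Wnt ligand, was at −1.63 (SE 0.45) with no overlap between the doses. Mcm6, a subunit of the replication helicase, was at −1.21 (SE 0.32), and at −0.23 without the 3 arrays. Atp13a2, a lysosomal transport ATPase, was at −0.78 (SE 0.20) and Sh3pxd2b, an adaptor of podosomes, at −1.48 (SE 0.38), both with no overlap between doses. Il1rap, the interleukin-1 receptor accessory protein, was at −0.88 (SE 0.24), also with no overlap between the doses. The 6 others were Ssbp4, a single-stranded DNA-binding protein (1.30), Msto1, a protein of mitochondrial shape (−1.01), Hpcal1, a neuronal calcium sensor (−0.64), Supt16h, a histone chaperone (−0.49), Eola2 (−1.004) and Rassf4 (−0.52). For 6 of these genes a second kept probe set lay near 0, at 0.065 for Il1rap, −0.069 for Wnt7a, −0.031 for Msto1, −0.045 for Eola2, −0.045 for Hpcal1 and −0.052 for Rassf4. Epha4 had 3 others, at 0.999, 0.41 and 0.16. In the fit without the 3 arrays Sh3pxd2b was at −0.65, Wnt7a at −2.52, Tnk2 at −1.14 and Rassf4 at −0.15. Sh3pxd2b, Mcm6, Il1rap, Wnt7a and Eola2 had means below the filter level at 80 mg/kg, and Ssbp4 at 10 mg/kg.

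**Figure D4:**
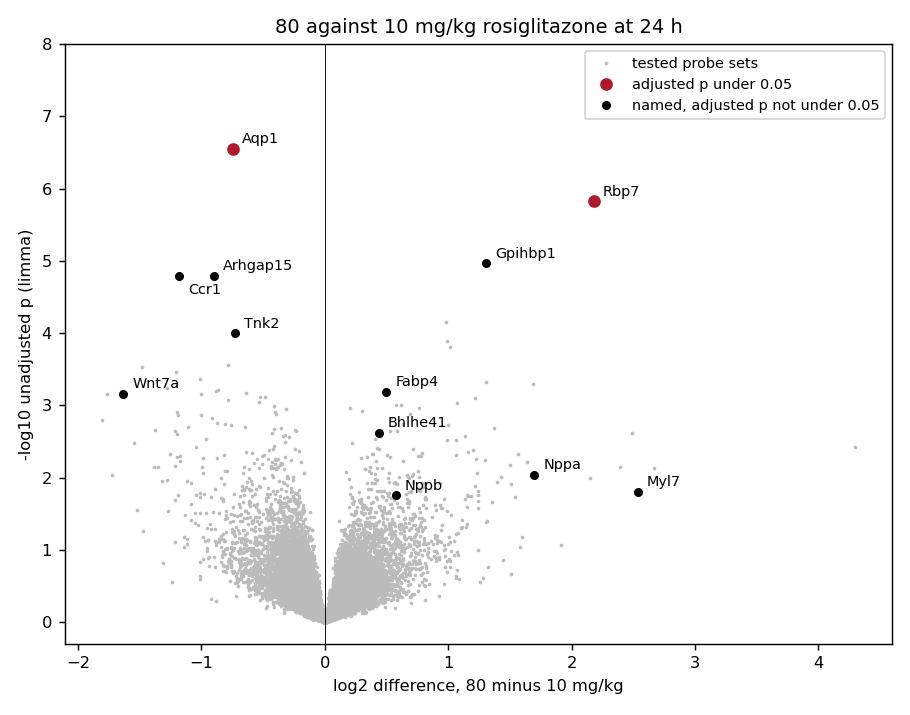
Log2 difference between 80 and 10 mg/kg at 24 h against −log10 of the unadjusted limma p for 18625 probe sets. Rbp7 and Aqp1 (red) passed the adjusted threshold, and the other named genes (black) did not.

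No gene of fat burning or storage in heart muscle cells passed the test. Pdk4, the kinase that shuts off pyruvate oxidation, stood at 9.78, 9.94, 9.38, 8.85 and 9.48 at 80 mg/kg, against 10.15, 9.37, 9.65, 10.76 and 9.90 at 10 mg/kg, with overlap (−0.48, SE 0.25, limma adjusted p = 1.0). Ucp3, a mitochondrial carrier, stood at 4.29, 5.38, 6.47, 4.34 and 5.33, against 6.38, 6.84, 5.34, 6.92 and 4.99 (−0.93, SE 0.45, limma adjusted p = 1.0). Without the 3 arrays high in Myl7 Pdk4 was at −0.25 and Ucp3 at −0.74. Of 13 measured PPAR alpha targets of fasting 4 were higher and 9 lower, none passing, with a median of −0.071 (−0.12 without the 3 arrays) and 1 (Ucp3) at an unadjusted p under 0.05 in the lower direction, where 2.06% of all probe sets were. Of 22 genes of fatty acid oxidation 6 were higher and 16 lower with a median of −0.019, none with an unadjusted p under 0.05. The carnitine transferases Cpt1a and Cpt1b were at −0.072 (SE 0.14) and 0.012 (SE 0.074), and Acadm, which starts the breakdown of medium-length fatty acids, at −0.017 (SE 0.072). Without replicates 2, 4 and 5 of 80 mg/kg 14 of the 22 were higher and 8 lower, with a median of 0.022.

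Of 27 genes of lipid droplets and triglyceride synthesis 9 were higher and 18 lower (median −0.10, and −0.14 without the 3 arrays), none passing. The droplet coat genes Plin2 and Plin5 were at −0.013 (SE 0.093) and 0.048 (SE 0.21). Of 22 genes of glucose uptake and glycolysis 7 were higher and 15 lower (median −0.033), none passing, and 10 and 12 without the 3 arrays (median −0.018). Pfkp, a phosphofructokinase subunit, was at 0.50 (SE 0.17), Hk1, a hexokinase, at 0.36 (SE 0.17), Eno3, muscle enolase, at −0.31 (SE 0.13) and Pgk1, phosphoglycerate kinase, at −0.17 (SE 0.061). Slc2a4, the insulin-responsive glucose transporter, was at −0.018 (SE 0.13) and its relative Slc2a3 at 0.34 (SE 0.18). Of 28 subunits of oxidative phosphorylation 7 were higher and 21 lower, between −0.18 and 0.13 with a median of −0.024, and without the 3 arrays 15 were higher and 13 lower. Of 22 genes of insulin and IGF signalling 17 were higher and 5 lower (median 0.10, and 0.083 without the 3 arrays), none with an unadjusted p under 0.05.

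No clock gene, a group whose levels cycle over the day, passed between the doses. Bhlhe41, a clock repressor, stood at 8.87, 8.90, 8.62, 8.89 and 8.64 at 80 mg/kg, against 8.37, 8.20, 8.60, 8.24 and 8.31 at 10 mg/kg. The doses did not overlap, and the vehicle arrays ran from 7.46 to 8.21 with a median of 7.97. The difference was 0.44 (SE 0.14, limma adjusted p = 0.714), and against vehicle it was 0.90 at 80 mg/kg (limma adjusted p = 8.87e-05) and 0.46 at 10 mg/kg (limma adjusted p = 0.523).

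Dbp, whose transcription the clock drives directly, stood at 8.64, 8.56, 8.55, 8.77 and 8.74 at 80 mg/kg, against 7.71, 7.95, 8.62, 8.17 and 7.45 at 10 mg/kg. The arrays of 80 mg/kg lay close together, and replicate 3 of 10 mg/kg was among them (difference 0.67, SE 0.29, limma adjusted p = 1.0). Bhlhe40 was at 0.58 (SE 0.31), the repressor Nr1d1 at 0.55 (SE 0.34), the activator Bmal1 at −0.44 (SE 0.27) and Per2 at 0.10 (SE 0.36). Of 16 clock genes 8 were higher and 8 lower (median 0.033), 2 of them (Bhlhe41 and Dbp) with an unadjusted p under 0.05 in the higher direction, where 1.68% of all probe sets had one. Without replicates 2, 4 and 5 of 80 mg/kg 10 were higher and 6 lower (median 0.10), with Dbp at 0.67, Bhlhe40 at 0.95 and Per2 at 0.37. The hour of day of sampling is not in the labels. Of 19 immediate early genes, a class induced quickly by many stimuli, 13 were higher and 6 lower (median 0.053, and 0.088 without the 3 arrays), with Nr4a3, an orphan nuclear receptor, at 0.72 (SE 0.24, limma adjusted p = 0.893).

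No gene of heart muscle load passed either. Nppb, the brain natriuretic peptide gene, stood at 12.03, 11.96, 12.32, 11.51 and 12.13 at 80 mg/kg, against 11.20, 11.75, 11.75, 11.37 and 10.997 at 10 mg/kg. Only replicate 5 of 80 mg/kg overlapped the arrays of 10 mg/kg, and it is 1 of the 3 high in Myl7. The difference was 0.58 (SE 0.23, limma adjusted p = 1.0), or 0.63 without the 3 arrays. Acta1, skeletal actin of the fetal heart, was at 0.47 (SE 0.21) and Myh7, the slow myosin heavy chain, at −0.16 (SE 0.38). Of 16 genes of the fetal program and wall stress 12 were higher and 4 lower (median 0.096), and 9 and 7 without the 3 arrays (median 0.018).

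No extracellular matrix gene passed, and the balance of their signs differed with and without those arrays. Of 36 measured 23 were higher and 13 lower (median 0.033), and without replicates 2, 4 and 5 of 80 mg/kg 10 were higher and 26 lower (median −0.093). Ccn2, a matricellular growth factor, was at 0.29 (SE 0.19), Fn1, fibronectin, at −0.043 (SE 0.21), and Lox, which crosslinks collagen, at −0.14 (SE 0.17). Among 21 cell cycle genes 12 were higher and 9 lower (median 0.0085, and −0.066 without the 3 arrays), and among 20 ion channel genes 13 and 7, with Kcnj5, a subunit of the acetylcholine-activated potassium channel, at 0.35 (SE 0.14) and Kcna5, a voltage-gated potassium channel, at −0.81 (SE 0.29). Sarcomere genes (13 higher, 9 lower of 22), calcium handling genes (8 and 10 of 18), glucocorticoid and FoxO responsive genes (11 and 10 of 21) and chaperones (10 and 10 of 20) had medians between −0.0054 and 0.0066. Antioxidant enzymes (10 and 13 of 23) and interferon-induced genes (7 and 10 of 17) had medians of −0.036 and −0.040. Of the last, Tnfsf10, the death ligand TRAIL, was at 0.53 (SE 0.16, limma adjusted p = 0.698), at 8.40, 8.05, 7.38, 8.35 and 7.45 at 80 mg/kg against 7.08 to 7.52 at 10 mg/kg.

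Markers of capillary endothelium were measured because Rbp7, Gpihbp1 and Aqp1 are genes of these cells. Of 9 markers, Aqp1 among them, 3 were higher and 6 lower (median −0.026). The 1 that passed was Aqp1, which is the call already given above and adds nothing to it. With the 3 arrays high in Myl7 left out 1 was higher and 8 lower (median −0.13). Emcn, endomucin, stood at 9.20, 9.29, 9.26, 9.18 and 9.14 at 80 mg/kg, against 9.55, 9.51, 9.54, 9.33 and 9.31 at 10 mg/kg, just without overlap (−0.24, SE 0.074, limma adjusted p = 0.698). Cav1, caveolin of the endothelium, was at −0.21 (SE 0.088). With Aqp1 left out, the summed signal of the other 8 markers ran from 3697 to 4594 at 80 mg/kg and from 3848 to 4834 at 10 mg/kg, ranges that overlap. Of 20 genes of the wider endothelial list 8 were higher and 12 lower (median −0.053), and 5 and 15 without the 3 arrays (median −0.062).

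Adipocyte markers other than Fabp4 had lower means at 80 mg/kg and none passed. Of 5 measured 1 was higher (Fabp4) and 4 lower (median −0.16, and −0.27 without the 3 arrays), and the summed signal of 8 markers without Fabp4 ran from 1237 to 2221 at 80 mg/kg and from 1698 to 2798 at 10 mg/kg, 4 of these 8 being below the filter level. Red blood cell markers, a further source of Aqp1 transcripts, summed to 9335 to 11908 at 80 mg/kg and to 8415 to 13539 at 10 mg/kg, with all 3 lower in the mean (median −0.089, and −0.12 without the 3 arrays). Markers of smooth muscle and pericytes were lower in 7 of 8 (median −0.15, and −0.032 without the 3 arrays), of macrophages and leukocytes in 5 of 7 (median −0.053, and −0.16 without the 3 arrays), and of fibroblasts in 3 of 8 (median 0.049, and −0.078 without the 3 arrays). Epicardial markers were lower in 3 of 5 (median −0.097, and −0.23 without the 3 arrays) and nerve markers in 2 of 3 (median −0.11, and −0.26). In none of these lists did a member other than Aqp1 pass.

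**Figure D5:**
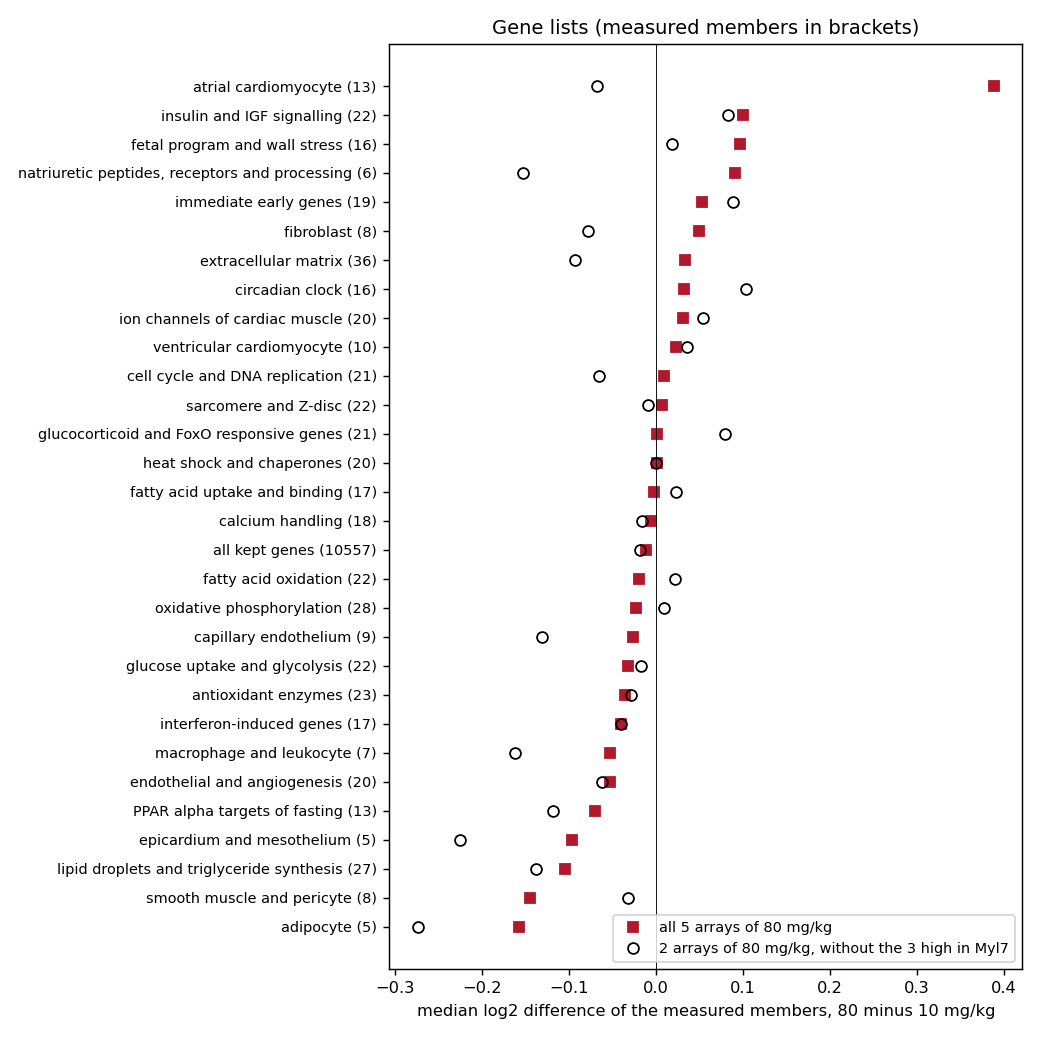
Median log2 difference between 80 and 10 mg/kg at 24 h over the measured members of each gene list with at least 5, from all 5 arrays of 80 mg/kg (red squares) and from the 2 that remain without those high in Myl7 (open circles). The atrial list has a median of 0.39 with all arrays and of −0.068 without the 3. All other medians lie between −0.27 and 0.10 in both. The 3 arrays were chosen by Myl7, a member of the atrial list, so the fall of that median is no test.

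Without replicates 2, 4 and 5 of 80 mg/kg the transcripts that passed were others. In limma 9 probe sets then passed, 0 higher and 9 lower, and 0 of the 2 above were among them. The 5 with a single named gene were Tnk2 (−1.14), Tcirg1, a subunit of the vacuolar proton pump (−1.81), Arrb2, beta-arrestin 2 (−2.07), Ece2, an endothelin-converting enzyme (−2.15), and Nup62cl (−2.36). Tcirg1 stood at 3.63 and 5.53 in replicates 3 and 6 and at 6.41, 6.60 and 6.35 in replicates 2, 4 and 5 of 80 mg/kg, against 6.14 to 6.63 at 10 mg/kg. Arrb2 stood at 4.37 and 2.92, and at 6.28, 5.68 and 5.39, against 5.29 to 6.00. For Nup62cl and Ece2 the lowest array was replicate 3, at 2.37 and 2.35. These calls thus rest on 2 arrays of 80 mg/kg, several of their values lie below the filter level, and they were looked at after the arrays had been seen.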

How the data were processed

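Transcripts of 62 heart samples in 12 groups were measured on Affymetrix rat arrays, 1 per sample. The authors deposited 1 linear intensity for each probe set and array. GCOS and MAS5 made them, per the submitters' processing notes; their versions are not given in the sources used here. Per the labels, RNA came from a column kit with DNase, and was labelled by a 1-cycle protocol with biotin. MAS5 makes 1 signal per probe set from each array by itself. The arrays did not share a scale (2% trimmed means of 82.9 to 245.6 over the series), so log2 signals were quantile normalized over all 62 arrays, and only differences relative to other probe sets can be seen.

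After 57 control probe sets were left out, 31042 remained, and 18625 with a mean log2 signal at or above the 40th percentile (5.03) were tested. Probe sets were named by GEO's platform annotation, which lists 1 gene for 20826 of them, several for 436 (left unnamed) and none for 9780. A RefSeq table matched 20758. Angptl4, a fixed gene, had no kept probe set.

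The linear model, fitted by limma 3.58.1 under R 4.3.3, held 12 group means and pooled the spread over all groups (50 residual degrees of freedom). The tests were two-sided, with Benjamini-Hochberg adjustment over all tested probe sets, and a probe set passed at an adjusted p under 0.05. The procedure was tested on simulated data beforehand. The number of arrays limits the precision.

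The genes and the 33 gene lists (535 distinct members) were chosen with earlier results of these data known. Named were the probe sets that passed, the genes with the smallest p up to 20 in all, list members that passed, and a fixed set of metabolic, clock and cardiac genes, each by its brightest kept probe set unless chosen by its p. Other genes named, among them list members with an unadjusted p under 0.05 and those that passed only without the arrays high in Myl7, were chosen after their values were seen. Lists count 1 probe set per gene. Alternatives were the deposited and median scales, other filters, array weights, blocks, fewer groups and each array left out. Those on Myl7 were chosen after seeing the data.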

Additional observations from a re-analysis of the deposited data

Results flagged for a closer look

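Of 162 groups of 5 or 6 arrays of a named probe set, 14 held an array whose gap to the nearest of the others was too large a share of the group's range for Dixon's test at the 95% level, and chance flags about 1 in 20 groups. Per2 stood at 5.777 in replicate 5 of 80 mg/kg, below 6.89 in the next, and Klf13, a transcription factor, at 5.05 in the same array. At 10 mg/kg replicate 1 was low for Gpihbp1 (7.719) and high for Fabp4 (12.28), replicate 3 high for Hpcal1 (7.639), and replicate 6 low for Myh6 (13.92), where the other 4 arrays were tied at 13.94. In vehicle, replicate 4 was high for Rbp7 (9.001), and it was also the highest vehicle array for Gpihbp1 and Fabp4. Vehicle replicate 2 was high for Atp13a2 (7.45) and Myl2 (13.81) and low for Sh3pxd2b (5.029) and Ssbp4 (5.382). Vehicle replicate 1 was low for Tsga10 (5.208), and replicate 3 for Ppara (3.554) and Klf13 (4.001).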

How the results depend on the processing

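The count of 2 probe sets was unchanged with median scaling, no filter, a filter over the 10 arrays, array weights and the array cluster as a term. It was 1 on the deposited scale (Rbp7) and 1 with Myl7 as a covariate (Aqp1). It was 0 with the 24 h arrays alone and 0 with the 10 arrays alone (644 and 572 at an unadjusted p under 0.05 in limma). These fits have fewer samples to estimate the spread and take it from those arrays only. The count was 9 without the 3 arrays of 80 mg/kg high in Myl7, where the comparison with the later times gave 4 in place of 0, and 8 without all 10 such arrays of the series. With each array left out in turn the count was 0 to 4, at 0 without replicate 2 of 80 mg/kg or replicate 3 of 10 mg/kg, 1 without replicate 4 of 80 mg/kg or replicate 1 of 10 mg/kg, and 4 without replicate 6 of 80 mg/kg. The comparison with the later times stayed at 0 in all other fits run. Arrays of the same replicate number did not deviate together (correlations of −0.10, −0.13, −0.21 and −0.094 over 4 shared numbers), and the replicate block gave 2, with the same 2 probe sets. Of 52 named genes that did not pass, 17 changed sign in at least 1 alternative and 4 passed in at least 1. Signals near the filter level limit the low genes.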

Other observations

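Among the 5 largest differences between the doses were, beside Myl7, 4 probe sets with no gene listed, which were looked at after their values were seen and did not pass. The probe set 1375230_at stood at 10.76, 9.80, 10.69, 11.21 and 11.28 at 80 mg/kg, against 4.71, 5.92, 5.86, 9.74 and 6.04 at 10 mg/kg (difference 4.29, SE 1.42, limma adjusted p = 0.893). Its 6 vehicle arrays stood at 7.50, 10.10, 5.57, 11.18, 11.57 and 10.997. Thus 4 of 5 arrays of 10 mg/kg were far below the arrays of 80 mg/kg, replicate 5 of 10 mg/kg was beside them, and vehicle arrays lay at both levels. The probe sets 1371394_x_at (difference 2.67) and 1392627_x_at (2.49) shared this order, with replicate 5 of 10 mg/kg at 10.62 and 9.37 and the other 4 arrays at 6.29 to 7.35 and at 6.87 to 7.45. The probe set 1391481_at (2.39) also had replicate 5 highest at 10 mg/kg, at 7.65. Without the arrays high in Myl7 these 4 differences were 4.09, 2.61, 2.30 and 2.28.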
